A study of Saccharomyces cerevisiae with 24 samples.

Results

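Irradiated cells sampled 60 min after their return to medium (laser T60, 3 libraries) were compared with control cells sampled 30 min after theirs (control T30, 3 libraries), a choice of times meant to match the lag of the irradiated cells roughly. All genes entered the comparison, 5876 of the 6427 in the tables passed the filter on low values, and these 6 libraries are part of a series of 24 in 8 groups of 3. All cells were *S. cerevisiae* BY4741, a haploid laboratory strain (*MATa his3Δ1 leu2Δ0 met15Δ0 ura3Δ0*) grown in YEPD, and both groups had been washed and held on ice in PBS before transfer to prewarmed YEPD. Each of 3 mid-log cultures was divided. The laser portion was spread over small tubes, irradiated for 30 s at 355 nm in a chilled block and pooled again, whereas the control portion stayed on ice, so that light and handling cannot be told apart. Laser T60 and control T30 also differ by 30 min in medium, and control T60 (3 libraries of the same clock time) is therefore given beside many of the results. In RNA from whole cultures, fewer cells making a transcript and less transcript per cell cannot be told apart.

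The values are RPKM, reads per kilobase of gene, scaled to a fixed number of reads. Each library had been scaled to its own total, so that values from the T30 and T60 tables share a total. The median gene still differed between libraries, with 22.6, 32.2 and 33.5 RPKM in laser T60 and 27.2, 26.6 and 31.1 in control T30. The 6 libraries held about 3711500 to 5394000 reads each. *LEU2* and *URA3* were at 0.021, the value given to a gene without reads, in all 24 libraries. *MATALPHA1*, a regulator of the opposite mating type, was at that value in 5 of the 6. *MATALPHA2* and *STE3*, also listed as markers of that type, had reads in all 6, at 2.94 to 9.34 and 1.33 to 3.94 RPKM. *STE2*, the α-factor receptor of MATa cells, ranged from 359 to 916 RPKM in the 6. *MET17*, the present name of *MET15*, had 163 to 299 RPKM although the genotype lists it as deleted, and *HIS3*, which the *his3Δ1* allele affects, had 112 to 119.9 RPKM.

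Cells that copy or repair DNA need deoxyribonucleotides, which ribonucleotide reductase makes from large subunits (*RNR1*, *RNR3*) and small subunits (*RNR2*, *RNR4*). In undamaged yeast the repressor Crt1, product of *RFX1*, holds *RNR2*, *RNR3*, *RNR4* and *HUG1* down, and the checkpoint kinases Mec1, Rad53 and Dun1 lift that repression. Iron supply is run by the activators Aft1 and Aft2, which switch on siderophore capture, iron transport and iron sparing when iron-sulfur cluster signals are low. Msn2 and Msn4 drive a general stress program that is wound down as cells resume growth.

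The letters that these regulators read were searched on both strands in the 600 bases before each start codon. They are shown because *HUG1*, *LSO1* and *RNR3*, among the genes with the largest differences below, belong to these regulons. Other genes with large differences, such as *IZH4*, *YJL133C-A* and *TPO2*, are not in the lists of these regulons. Runs of 30 bases were read from the R64 reference of strain S288C (RefSeq), 5′ to 3′ on the strand that spells the motif. The core of the Crt1 site, GTTGCC, is in capitals here:
HUG1, far site: aaatacgtaaagGTTGCCttcgtatctcgt
HUG1, near site: tgctgggaatcaGTTGCCttcgtatctcgt
RNR3: ggcaaaaacccgGTTGCCatggcgaggacc
RNR2: tttccccaaacgGTTGCCcgttgctccgga
RNR4: aaagaggatggtGTTGCCacaacaacgccc
The *HUG1* runs lie at chrXIII:158535-158564 on the plus strand and chrXIII:158582-158611 on the minus strand, facing each other, and their last 18 bases are identical. The *RNR3* run is at chrIX:240962-240991 (minus strand), that of *RNR2* at chrX:391916-391945 (minus strand) and that of *RNR4* at chrVII:856670-856699 (plus strand). Of 5971 windows 991 (16.6%) held GTTGCC, and 4 of the 9 DNA damage genes called higher did (44.4%), namely the 4 shown.

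The core of the Aft1 site, TGCACCC, is in capitals in the next runs, from the iron genes that were called higher:
LSO1: atcgagaatgtTGCACCCttttttccaatc
FIT2: atttaaaacaaTGCACCCtaagttcaaatg
TIS11: ccgccgcaaaaTGCACCCacattaaagaag
HMX1: ctctagtaaactTGCACCCgcacctgttag
SIT1: gacgaaccagatTGCACCCtcaaatgtgtt
ENB1: gtttaaattatTGCACCCaaatgtgataca
They lie at chrX:448885-448914 (*LSO1*, minus strand), chrXV:1059254-1059283 (*FIT2*, plus), chrXII:416889-416918 (*TIS11*, minus), chrXII:554110-554139 (*HMX1*, plus), chrV:27458-27487 (*SIT1*, minus) and chrXV:21486-21515 (*ENB1*, minus). All 6 iron genes called higher held TGCACCC, and so did 159 of the 5971 windows (2.66%). Where a window held several matches 1 is shown. A match is a description of the letters, not evidence of binding. The DNA damage list was drawn in part from the ribonucleotide reductase regulon, and the iron list from the Aft1/Aft2 regulon. Their shares follow at least partly from that choice and say nothing about the calls. Shares among uncalled members were not counted.

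How far the times were matched was described by Bray-Curtis distances between libraries, taken on square roots of RPKM, where the distance is 0 for identical profiles. From the 3 laser T60 libraries the mean distance was 0.148 to control T0, 0.0868 to T15, 0.0740 to T30 and 0.0792 to T60. The T30 and T60 means differ by less than their spread over pairs of libraries (SD 0.0236 and 0.0265). Laser T60 replicate 1 stood apart, at 0.103 and 0.122 from replicates 2 and 3, which were 0.0349 from each other. Replicate 1 was nearer to control T60 (0.0860) than to control T30 (0.0990), whereas replicate 2 (0.0570 to T30, 0.0720 to T60) and replicate 3 (0.0659 and 0.0796) were nearer to T30. Between equally numbered libraries, replicate 3 lay at 0.0519 from control T30 and 0.0483 from control T60, replicate 1 at 0.0863 and 0.0547, and replicate 2 at 0.0570 and 0.0680, so that the nearest time depends on which control libraries are used.

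**Figure D1:**
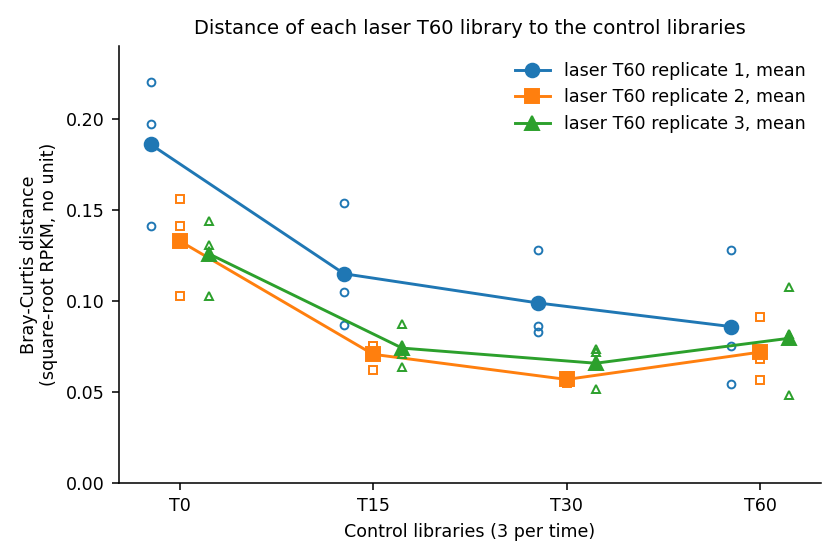
Bray-Curtis distance (no unit) of each laser T60 library to the 3 control libraries of each time; open symbols are pairs of libraries, filled symbols their mean. Replicates 2 and 3 reach their lowest mean at T30 (0.0570 and 0.0659), and replicate 1 at T60 (0.0860).

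With the replicate number as a block, 116 genes were higher in laser T60 than in control T30 (1.97% of those tested) and 48 were lower (0.817%), together 2.79%. A call asks for a limma adjusted p below 0.05 together with a difference of 1 or more on the log2 scale. The median over all genes was 0.04. Without the block the counts were 41 (0.698%) and 17 (0.289%), and after leaving out replicate 3 of both groups 20 and 11. Leaving out replicate 1 gave 183 and 55, and median-ratio rescaling of all 6 libraries gave 60 and 35. In the 6 libraries, 100 of the 116 genes had all laser values above all control T30 values, as did 10.5% of all genes tested. Of the 48 lower genes 45 had all laser values below, against 5.31% of all genes. Against control T60 the same laser libraries gave 135 higher genes (2.30%) and 49 lower (0.834%), and 11 and 3 without the block. From control T30 to control T60 itself 63 genes rose (1.08%) and 53 fell (0.908%), and 70 and 37 after median-ratio rescaling. The comparisons share libraries.

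Genes of the DNA damage response included the gene with the largest difference of those called, *HUG1*. Of 40 tested, 9 were higher and none lower, beside 1.97% and 0.817% of all genes, and 34 of the 40 estimates were above 0, beside 55.5% of all genes. The list median was 0.41 against 0.04 over all genes. Without the block 7 of the 9 calls were made, beside 0.698% of all genes called higher.

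*HUG1*, an intrinsically disordered inhibitor of ribonucleotide reductase, had 485, 493 and 533 RPKM in laser T60 and 18.2, 8.06 and 16.7 in control T30. Every laser value lay far above every control value of any time, the highest of which was 22.9. The ratio of the means was 35.2, with a log2 fold change of 5.12 ± 0.22 (SE, n = 3 per group; limma adjusted p = 8.23e-39, and 4.85e-06 without the block). The gene lies on chromosome XIII at 158760 to 158966 of R64. Its mean at laser T60 was still 94.8% of that at laser T30.

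*RNR3*, the damage-inducible large subunit, had 13.6, 24.4 and 30.7 RPKM against 1.86, 1.78 and 3.36. The ratio was 9.83 and the log2 fold change 2.80 ± 0.33 (adjusted p = 1.05e-10, and 0.00446 without the block). By contrast *RNR1*, the large subunit of ordinary S phase, had 132, 217 and 216 RPKM against 163, 116 and 135. These values overlap, and the gene was not called (0.42 ± 0.21, adjusted p = 0.323). In control cells *RNR1* differed by 0.81 ± 0.16 between T30 and T60, under the fold asked for.

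The small subunits differed by less, from a much higher level. *RNR4* had 611, 916 and 1077 RPKM against 281, 270 and 299, a ratio of 3.07 (log2 1.58 ± 0.20). *RNR2* had 390, 630 and 729 RPKM against 202, 204 and 230, a ratio of 2.75 (log2 1.41 ± 0.20). Laser replicate 1 was lowest in *RNR2*, *RNR3* and *RNR4*. Both small subunit genes were called without the block (adjusted p = 0.00937 for *RNR4* and 0.0253 for *RNR2*), and the call of *RNR2* was lost without replicate 3. Against control T60 the log2 differences of the 4 genes, *HUG1* 5.63, *RNR3* 2.89, *RNR2* 1.37 and *RNR4* 1.27, were all past the threshold too.

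**Figure D2:**
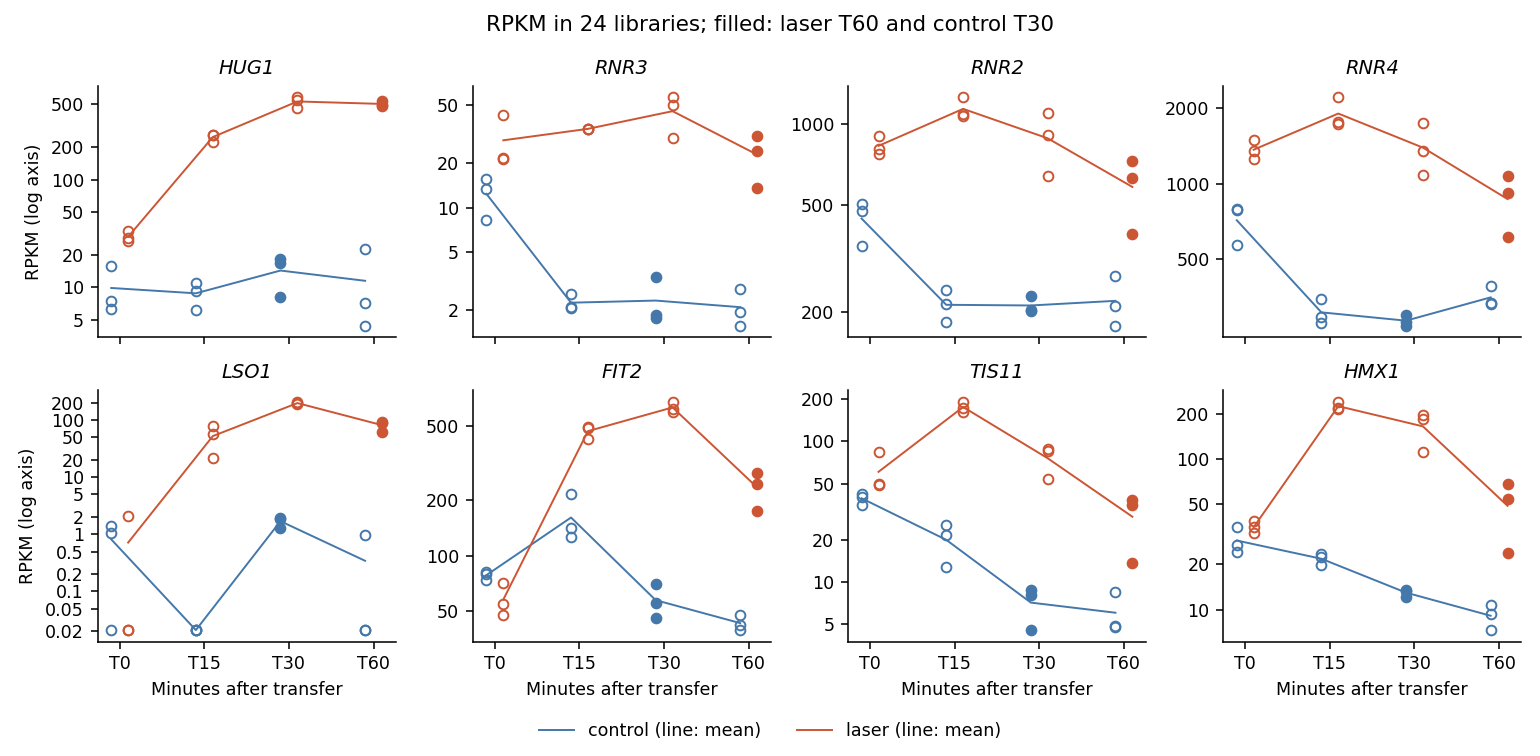
RPKM (log axis) of 4 DNA damage genes (upper panels) and 4 iron genes (lower panels) in all 24 libraries by minutes after transfer; points are libraries, lines are group means, and the filled points are the groups compared. For each of the 8 genes the 3 laser T60 libraries lie above the 3 control T30 libraries.

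Repair genes outside that regulon were higher by smaller amounts. *MAG1*, the glycosylase that removes alkylated bases, had 32.1, 35.7 and 39.6 RPKM against 11.8, 12.9 and 11.9 (log2 1.47 ± 0.26, and 1.92 against control T60). Its divergent neighbour *DDI1*, which encodes a shuttle protein and protease for ubiquitinated proteins, had 33.0, 66.4 and 78.8 against 23.9, 22.0 and 30.9 (1.11 ± 0.24). Against control T60 *DDI1* differed by 0.96 ± 0.17, under the fold asked for. In control T0 *MAG1* had 27.5, 33.4 and 38.8 RPKM, near its laser T60 values, and *DDI1* had 46.9, 82.2 and 78.8.

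*RFA2*, a subunit of the single-strand binding protein RPA, had 135, 179 and 167 RPKM against 80.3, 70.6 and 74.3 (1.08 ± 0.21), and *ECO1*, the cohesin acetyltransferase, had 13.0, 16.4 and 18.3 against 7.33, 4.60 and 9.72 (1.08 ± 0.31). For *RFA2* and *ECO1* the control libraries also differed between T30 and T60, by 0.76 and 1.17, of which that of *ECO1* was called. Against control T60 their differences were only 0.31 and −0.09, neither of them called. The calls of *MAG1*, *DDI1*, *RFA2* and *ECO1* were lost without replicate 3, and those of *DDI1* and *ECO1* also without the block. Among members not called, *DUN1*, the kinase of this pathway, had a log2 difference of 0.74 ± 0.28 (adjusted p = 0.119), and *PHR1*, the photolyase that reverses pyrimidine dimers in light, had 0.29 ± 0.39.

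Several genes of the iron regulon were higher. Of 33 genes tested 6 were higher and none lower, beside 1.97% and 0.817% of all genes. The median was 0.54, and 28 estimates were above 0, beside 55.5% of all genes. Without the block 3 were called higher (*LSO1*, *FIT2* and *HMX1*), beside 0.698% of all genes. With all 24 libraries in the fit 6 were, beside 1.55%. Against control T60 11 were higher, beside 2.30% of all genes.

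*LSO1*, a small protein made under iron deprivation, had 63.2, 89.6 and 92.8 RPKM in laser T60 and 1.91, 1.31 and 1.88 in control T30. The control values rested on 2 reads in each library, against 76, 124 and 120 reads. Scaled for depth, the ratio of reads was 49.9, with a counting interval of 22.7 to 137 (exact, 95%), which covers counting error only. The log2 fold change was 4.93 ± 0.29 (adjusted p = 3.59e-28, and 4.85e-06 without the block). The laser T60 mean was 41.0% of that at laser T30.

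*FIT2*, a wall mannoprotein that retains siderophores, had 174, 280 and 242 RPKM against 46.1, 55.8 and 70.7, a ratio of 4.04 (log2 1.99 ± 0.21, adjusted p = 5.15e-13, and 0.00302 without the block). *TIS11*, which leads mRNAs of iron-using proteins to decay, had 13.7, 38.5 and 35.1 RPKM against 8.79, 4.54 and 8.04 (1.80 ± 0.30). *HMX1*, the heme oxygenase that releases iron, had 23.6, 54.3 and 68.8 against 13.3, 13.4 and 12.2 (1.71 ± 0.26). In *TIS11* and *HMX1* laser replicate 1 was the lowest laser library and still lay above the control T30 libraries. The control T0 mean of *TIS11* was 39.4 RPKM, above the 29.1 of laser T60. Those of *HMX1* and *FIT2* (28.8 and 78.4) were below the laser T60 means of 48.9 and 232.

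The siderophore transporters *SIT1* and *ENB1* were higher too. *SIT1* had 34.8, 89.3 and 94.2 RPKM against 17.7, 20.5 and 32.1 (log2 1.51 ± 0.24), and *ENB1* had 30.1, 62 and 63.3 against 20.4, 19.2 and 25.4 (1.15 ± 0.24). The calls of *HMX1*, *SIT1*, *TIS11* and *ENB1* were lost without replicate 3, and those of *SIT1*, *TIS11* and *ENB1* also without the block (adjusted p = 0.0999, 0.0668 and 0.124). The high-affinity uptake pair was not called. *FET3*, the ferroxidase, had 116, 308 and 322 RPKM against 118, 144 and 211 (0.56 ± 0.20, adjusted p = 0.104), and *FTR1*, its permease, differed by 0.06 ± 0.20.

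Aconitase (*ACO1*), an iron-sulfur enzyme of the tricarboxylic acid cycle, was lower. It had 45.8, 67.1 and 87.2 RPKM in laser T60 against 119, 113 and 164 in control T30, and 114, 139 and 229 in control T60. The laser values lay below all 12 control libraries, the lowest of which had 104. The log2 difference was −1.0 ± 0.21 (adjusted p = 4.66e-04), at the edge of the fold asked for, and was not called without the block (adjusted p = 0.125), without replicate 1 or without replicate 3. Against control T60 it was −1.24 ± 0.15. Of 23 genes of the tricarboxylic acid and glyoxylate cycles *ACO1* was the 1 lower and *PYC1* the 1 higher. Their median was 0.02, and 0.817% and 1.97% of all genes were lower and higher. Biotin synthase (*BIO2*), also an iron-sulfur enzyme, was higher in laser T60 than in control T30 (1.13 ± 0.23).

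**Figure D3:**
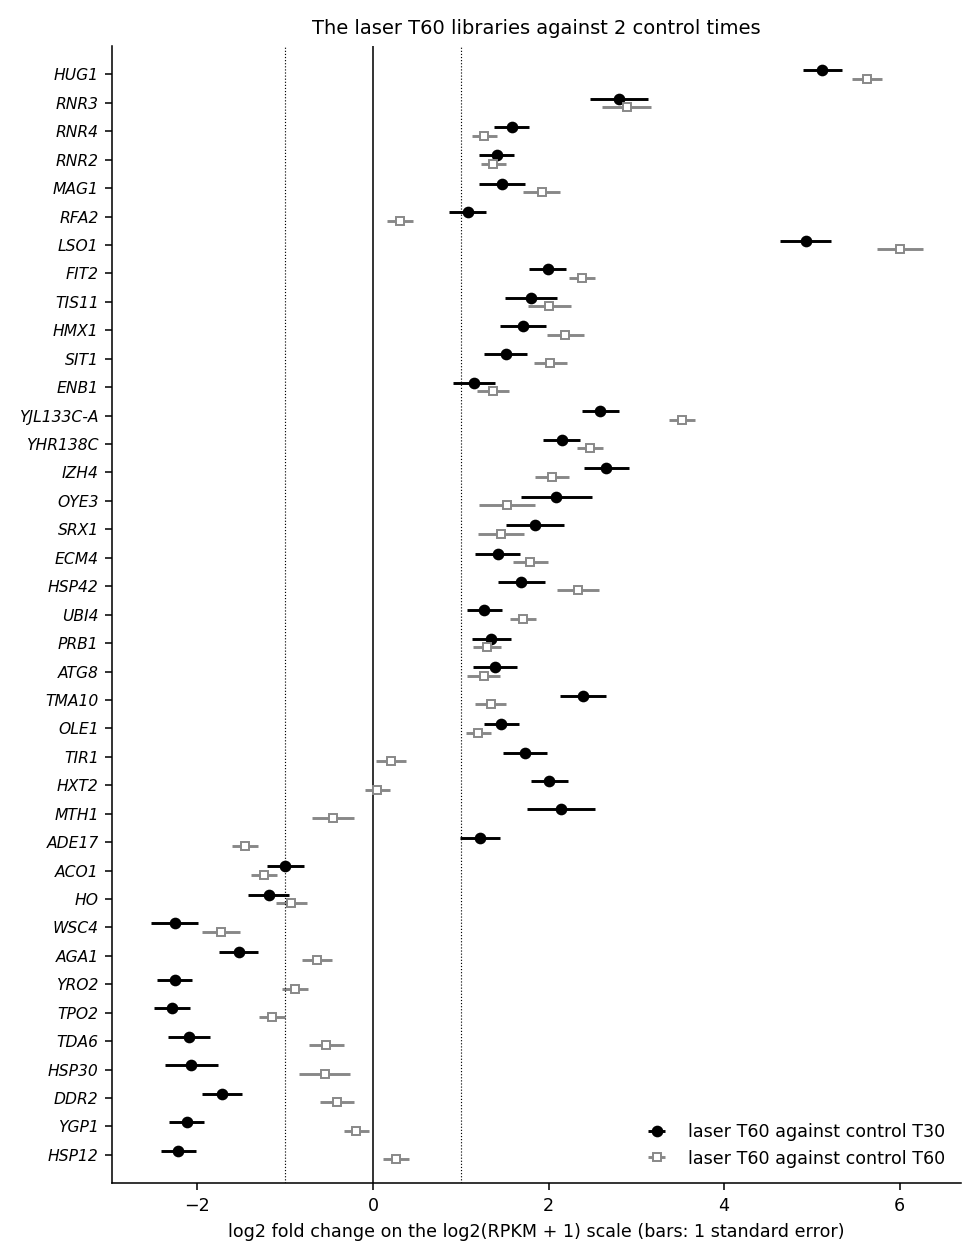
Log2 fold change on the log2(RPKM + 1) scale of 39 named genes, laser T60 against control T30 (filled) and against control T60 (open); bars are 1 standard error, and dotted lines mark a log2 fold change of 1. *HUG1* and *LSO1* are far to the right against both control times, whereas *MTH1*, *HXT2* and *HSP12* are near 0 against control T60.

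Oxidative stress genes gave 4 higher and none lower of 44 tested, beside 1.97% and 0.817% of all genes, with a median of 0.23. *OYE3*, an NADPH oxidoreductase, had 10.3, 10 and 6.89 RPKM against 1.79, 2.16 and 0.441 (log2 2.09 ± 0.40), above all 12 control libraries. *SRX1*, the sulfiredoxin that restores peroxiredoxins, had 9.77, 22.3 and 17.6 against 0.702, 5.79 and 7.60 (1.85 ± 0.33). *ECM4*, an omega-class glutathione transferase, had 27.0, 41.9 and 46.8 against 10.7, 13.0 and 17.4 (1.42 ± 0.26).

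*HBN1*, similar to bacterial nitroreductases, had 8.86, 4.90 and 5.24 RPKM against 2.78, 1.27 and 0.912 (1.49 ± 0.41). In control T60 it had 5.86, 5.08 and 2.40 RPKM, and the difference from those was not called (0.45 ± 0.32). The calls of *SRX1* and *HBN1* were lost without the block, and those of *OYE3*, *ECM4* and *HBN1* without replicate 3. *SRX1* and *ECM4* stood at 21.9% and 21.3% of their laser T30 means. Their control T0 means were 8.65 and 105 RPKM, beside 16.6 and 38.6 in laser T60. Most of the list was not called, for example *TSA2*, an inducible peroxiredoxin (0.80 ± 0.25, adjusted p = 0.0361, under the fold asked for).

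Genes of protein quality control gave few calls. Of 37 proteasome and regulator genes all had an estimate above 0, with a median of 0.55, but only *UBI4* passed the fold threshold, and 11 had an adjusted p under 0.05 at any fold (3.69% of all genes did so upward). The median was 0.54 after median-ratio rescaling. *UBI4*, the polyubiquitin gene, had 170, 293 and 353 RPKM against 91.5, 106 and 128 (1.27 ± 0.20). *RPN4*, the activator of proteasome genes, had 57.1, 97.3 and 102 against 44.1, 43.7 and 56.0 (0.79 ± 0.22, adjusted p = 0.0157).

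Of 33 chaperones 2 were higher and none lower (median 0.02), beside 1.97% and 0.817% of all genes. *HSP42*, a small heat shock protein, had 18.3, 36.1 and 50.6 RPKM against 7.64, 7.23 and 14.6 (1.69 ± 0.27), and *HSP78*, the mitochondrial disaggregase, had 13.3, 21.3 and 32.1 against 5.09, 7.99 and 10.2 (1.37 ± 0.29). The cytosolic disaggregase *HSP104* was at 0.29 ± 0.23 and the inducible Hsp70 *SSA4* at −0.16 ± 0.26, and neither was called.

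In the vacuole, *PRB1* (protease B) had 50, 118 and 155 RPKM against 28.8, 39.3 and 46.6 (1.35 ± 0.22), and *ATG8*, the ubiquitin-like protein of autophagosomes, had 46.3, 48.4 and 42.5 against 13.7, 20.9 and 16.5 (1.39 ± 0.25). These were the only calls among 33 genes of autophagy and vacuolar proteolysis, beside 1.97% of all genes called higher. The calls of *UBI4*, *HSP42*, *HSP78* and *PRB1* were lost without the block, and those of all 4 and *ATG8* without replicate 3. Control T0 means of *UBI4*, *HSP42*, *HSP78*, *PRB1* and *ATG8* were 432, 205, 68.1, 395 and 145 RPKM. Laser T60 means were lower, at 272, 35.0, 22.2, 107.5 and 45.7.

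Among the genes with the largest differences were 3 of little known function. *YJL133C-A*, a small putative mitochondrial protein, had 250, 257 and 332 RPKM against 34.7, 51.9 and 51.9 (log2 2.59 ± 0.21, adjusted p = 1.03e-18, and 2.25e-04 without the block). *YHR138C*, similar to a vacuolar protease inhibitor, had 269, 220 and 234 against 44.5, 53.2 and 64.6 (2.15 ± 0.21). Both were higher by more against control T60 (3.52 and 2.47), and both had been higher still at laser T30, of which 44.7% and 32.0% remained. Control cells at T0 also stood above laser T60, with means of 454 and 331 RPKM against 280 and 241.

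*TMA10*, a ribosome-associated protein, had 35.0, 55.4 and 63.5 RPKM against 6.19, 12.8 and 8.13 (2.39 ± 0.26). In control T60 it had 18.0, 20 and 19.2 RPKM, higher than in control T30 by 1.05 ± 0.21, and the laser libraries were higher than those by 1.34 ± 0.18. In control T0 it had 227 to 853 RPKM, above the laser T60 values. All 3 calls held without the block, under rescaling, under other filters and without any 1 replicate.

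A few genes of transport and metabolism differed from control T30 and were not called against control T60. *HXT2*, a glucose transporter, had 141, 248 and 290 RPKM in laser T60, 46.4, 42.2 and 75.7 in control T30, and 144, 222 and 286 in control T60. *MTH1*, a repressor in glucose sensing, had 6.66, 14.2 and 10 in laser T60, 1.66, 0.997 and 1.83 in control T30, and 10.8, 13.1 and 19.3 in control T60. The log2 fold changes were 2.01 ± 0.21 and 2.14 ± 0.39 against control T30, but 0.05 ± 0.14 and −0.46 ± 0.24 against control T60.

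*TIR1*, a cold-shock wall mannoprotein, followed the same course, with 45.0, 44.0 and 50.7 RPKM against 12, 13.6 and 14.6 at control T30 and 38.8, 44.9 and 36.8 at control T60. In control cells *HXT2*, *MTH1* and *TIR1* rose from T30 to T60 by 1.96, 2.60 and 1.52. None of the 3 was called against control T60. Unlike them, *ADE17*, of the last steps of purine synthesis, lay between its controls, with 65.5, 104 and 95.8 RPKM against 50.7, 35.4 and 27.4 at T30 and 192, 247 and 290 at T60. It was 1.22 ± 0.23 above control T30 and 1.46 ± 0.15 below control T60 on the log2 scale.

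Other metabolic genes differed from both control T30 and control T60, though not all were called against the latter. *IZH4*, of a membrane protein family tied to zinc, had 51.2, 57.7 and 49.7 RPKM against 8.32, 6.91 and 7.35 (log2 2.66 ± 0.26, and 2.04 against control T60). *OLE1*, the only fatty acid desaturase of yeast, had 546, 981 and 1075 against 320, 302 and 284 (1.46 ± 0.20). Control T0 means were 47.4 RPKM for *IZH4* and 957 for *OLE1*, beside 52.9 and 867 in laser T60. *YHB1*, the nitric oxide dioxygenase, had 358, 531 and 659 against 172, 146 and 184 (1.58 ± 0.20), above all 12 control libraries (0.85 ± 0.14 against control T60, under the fold asked for).

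*PYC1*, a pyruvate carboxylase, had 26.2, 60.1 and 83.5 RPKM against 15.0, 15.6 and 24.3 (1.46 ± 0.25). *BAT2*, a branched-chain aminotransferase, had 200, 312 and 346 against 100, 115 and 129 (1.28 ± 0.20), and *ARG3*, of arginine synthesis, had 8.76, 8.82 and 12.4 against 2.91, 3.65 and 3.65 (1.31 ± 0.35). *PHO89*, a phosphate transporter, had 8.97, 9.34 and 14.2 against 1.56, 0.967 and 3.69 (2.01 ± 0.37), and its difference from control T60 was not called (0.65 ± 0.27). The calls of *PYC1*, *ARG3* and *ADE17* were lost without the block and without replicate 3, and those of *OLE1* and *BAT2* without replicate 3.

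Apart from tRNA genes, which rest on few reads, the lower genes with the largest differences included *TPO2*, *YRO2*, *WSC4*, *HSP12* and *YGP1*. *HSP12*, a membrane-stabilising stress protein, had 210, 255 and 246 RPKM in laser T60 against 741, 1352 and 1356 in control T30. It had 193, 148 and 269 in control T60, with which the laser values overlap. The log2 fold change was −2.22 ± 0.20 against control T30 (adjusted p = 1.39e-16, and 0.00210 without the block) and 0.26 ± 0.15 against control T60. In laser T30 the 3 libraries had still held 4035 to 5975 RPKM, so that laser T60 stood at 4.58% of that level.

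*YGP1*, a secreted glycoprotein, had 124, 234 and 300 RPKM against 649, 855 and 1290 (−2.12 ± 0.20), and *DDR2*, a small stress protein, had 20.2, 43.8 and 27.0 against 62.3, 112 and 133 (−1.72 ± 0.23). Against control T60 they differed by only −0.19 and −0.41, and control cells had themselves fallen by 1.92 and 1.31 from T30 to T60. Of 50 general stress genes 5 were lower (*HSP12*, *YGP1*, *DDR2*, *SOL4* and *PHM8*) and 3 higher (*TMA10*, *HSP42* and *XBP1*), beside 0.817% and 1.97% of all genes, with a median of −0.14. Of the 3 higher genes *XBP1* was not called against control T60 (0.88 ± 0.25), and its laser values overlap those of control T30. Without the block 1 of the 50 was higher and 3 were lower, beside 0.698% and 0.289% of all genes. The calls of *XBP1* and *SOL4* were lost without the block (limma adjusted p = 0.535 and 0.355) and without replicate 3.

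The stress element AGGGG, which Msn2 and Msn4 read, stands in the 600-base windows of genes that differed in opposite directions. All 8 called members of the stress list held it, as did 39.7% of all windows. The list is one of Msn2/Msn4 genes, so that share follows at least partly from its choice. Runs of 30 bases from 1 lower and 1 higher gene are given with the element in capitals:
HSP12 (lower): gttgcaacttgcAGGGGgcggcacaaaata
TMA10 (higher): aagagcgggaagAGGGGcggcagttggttg
The former is at chrVI:106830-106859 (plus strand) and the latter at chrXII:783941-783970 (minus strand).

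Several lower genes were below both control times. *YRO2*, a membrane protein related to *HSP30*, had 55.5, 58.1 and 72.0 RPKM against 289, 276 and 332 in control T30 and 99.3, 102 and 148 in control T60, and lay below all 12 control libraries (−2.26 ± 0.20, and −0.89 ± 0.15 against control T60). *WSC4*, of the wall sensor family, had 4.38, 8.19 and 11.2 against 39.0, 32.9 and 47.4, with 21.7, 25.9 and 35.1 in control T60 (−2.26 ± 0.27 and −1.73 ± 0.22). *TPO2*, a polyamine exporter, had 39.0, 66.1 and 74.7 against 259, 250 and 362 (−2.29 ± 0.21, and −1.15 ± 0.15 against control T60).

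*HSP30* itself, a stress protein of the plasma membrane, had 3.28, 7.34 and 5.89 RPKM against 23.2, 20.8 and 33.7 (−2.07 ± 0.30). *TDA6*, of unknown function, had 12, 19.5 and 17.5 against 72.0, 59.3 and 87.9 (−2.10 ± 0.24). *RGS2*, a negative regulator of glucose-induced cAMP signalling, had 30.2, 38.4 and 30.2 against 112, 91.9 and 102 (−1.61 ± 0.22). None of these 3 was called against control T60 (−0.55, −0.53 and −0.53). *HSP12*, *HSP30*, *RGS2*, *TDA6*, *TPO2*, *WSC4*, *YGP1* and *YRO2* were the 8 genes called lower under each of the other settings tried.

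Calls that were less stable include *AQY1*, an aquaporin, with 3.06, 3.11 and 2.85 RPKM against 7.63, 10.7 and 19.7, and *PIR3*, a wall protein, with 4.07, 8.54 and 6.02 against 16.3, 19.5 and 36.1. Both were lost without replicate 3, as was *DDR2*. *YCL048W-A* and *YBR196C-B*, of unknown function, rested on 2 to 20 reads and 0 to 5 reads per library, and both were lost without the block.

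Of 23 phosphate genes 3 were lower, beside 0.817% of all genes, and *PHO89* was higher. *PHO3*, an acid phosphatase, had 90.0, 167 and 199 RPKM against 283, 314 and 430 (−1.22 ± 0.20). *PHM8* (−1.15 ± 0.24) and *SPL2* (−1.01 ± 0.25) were lower by similar amounts, and all 3 calls were lost without the block and without replicate 3, and those of *PHM8* and *SPL2* also without replicate 1. Against control T60 *PHM8* had the opposite sign (0.81 ± 0.20). None of the 3 was called there, with −0.48 for *PHO3* and −0.83 for *SPL2*.

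**Figure D4:**
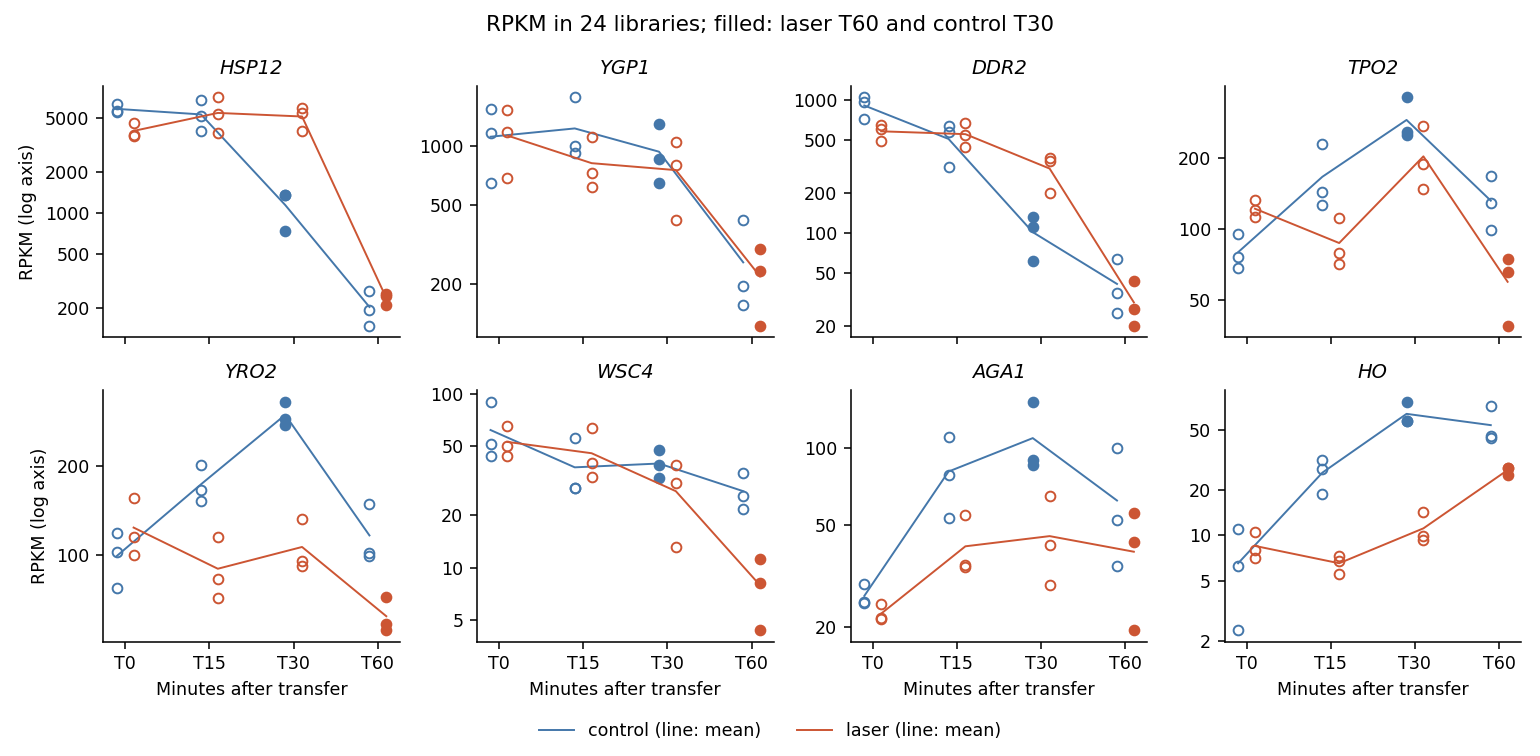
RPKM (log axis) of 8 genes that were lower in laser T60 than in control T30, in all 24 libraries by minutes after transfer; points are libraries, lines are group means, filled points the groups compared. In *HSP12*, *YGP1* and *DDR2* the control T60 libraries are down at the laser T60 level, whereas in *YRO2* and *WSC4* the laser T60 libraries lie below all control T60 libraries.

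Mating and daughter-cell genes had medians below 0 and few calls. Of 22 MATa and pheromone genes 4 were lower (9 at any fold) and none higher, beside 0.817% and 1.97% of all genes, with a median of −0.59, and of 25 M/G1 genes 3 were lower (10 at any fold), with a median of −0.58. At any fold 1.67% of all genes were lower. Against control T60 no member of either list was called, and the medians were −0.11 and −0.31.

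*AGA1*, the anchor of a-agglutinin, had 19.4, 42.9 and 55.6 RPKM against 86.1, 89.9 and 152 (−1.53 ± 0.22), and *BAR1*, the protease that destroys α-factor, had 56.9, 111 and 129 against 185, 198 and 297 (−1.23 ± 0.21). *PRM1* and *FIG1*, both of cell fusion, were lower by 1.20 and 1.52, the latter on 0 to 6 reads per laser library. The pheromone genes *MFA1* (−0.11 ± 0.20) and *MFA2* (−0.32 ± 0.20) were not called. None of the 4 mating calls was made without the block, and all but that of *AGA1* were lost without replicate 3.

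*SCW11*, a glucanase of daughter cell separation, had 66.2, 122 and 152 RPKM against 232, 247 and 329 (−1.31 ± 0.20), and *EGT2*, of the same step, had 37.6, 85.8 and 91.8 against 108, 130 and 192 (−1.05 ± 0.21). Both calls were lost without the block (adjusted p = 0.0676 and 0.251), which left 1 lower call in the M/G1 list, and that of *EGT2* also without replicate 1 and without replicate 3. In *AGA1*, *BAR1*, *SCW11* and *EGT2* laser replicate 1 was the lowest library. *HO*, the endonuclease gene transcribed late in G1, had 28.1, 28.1 and 25.1 RPKM against 77.1, 57.2 and 57.3 (−1.19 ± 0.23), with 44.0, 45.5 and 71.8 in control T60. It was called without the block (adjusted p = 0.0337) and not without replicate 3. It was the only call among 39 G1/S genes, the median of which was 0.14.

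Among growth genes, of 138 cytoplasmic ribosomal protein genes none was called at any fold, with a median of 0.02, and *RPL3* had 4230, 5145 and 5147 RPKM against 5424, 4999 and 5584. Of 86 ribosome assembly genes none was called, with a median of −0.24 and 1 lower at any fold. Respiratory chain genes (38) had a median of −0.15 with no call against control T30. Against control T60 it was −0.64 with 6 lower, beside 0.834% of all genes. The 10 histone genes had a median of 0.16 with no call, but of −1.0 with 5 lower against control T60, beside 0.834% of all genes. From control T30 to control T60 9 of the 10 histone genes rose, beside 1.08% of all genes. Sulfate assimilation (33 genes, median −0.12), glycolysis (24, −0.22), trehalose and glycogen (20, 0.25), amino acid transport (24, −0.02), translation factors (29, −0.11), mitochondrial ribosomal proteins (66, 0.31) and G2/M genes (21, −0.32) gave no calls either.

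**Figure D5:**
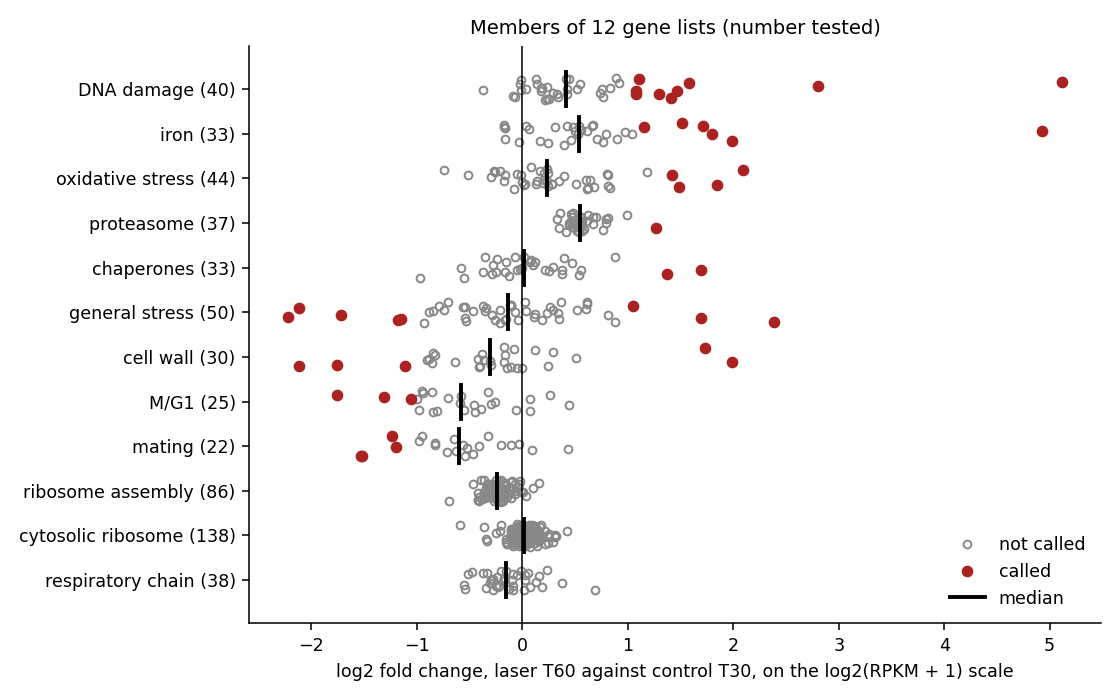
Log2 fold change, laser T60 against control T30, of the tested members of 12 gene lists; open points were not called, filled points were called and bars are list medians. The 9 called DNA damage genes and 6 called iron genes are all to the right, and the proteasome list is shifted to a median of 0.55 with 1 call.

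Only a few of the differences put the laser T60 libraries outside everything seen in control cells. Of the 116 higher genes 68 had all laser values above the 6 control T30 and T60 libraries, beside 5.22% of all genes tested, and 10 had them above all 12 control libraries, beside 0.562%. These 10 included *HUG1*, *LSO1*, *YHB1*, *OYE3*, *OTU1*, a deubiquitinating enzyme acting with Cdc48 (46.8, 70.2 and 78.4 RPKM against 25, 36.2 and 31.9), and *YGL039W*, an aldehyde reductase (58.6, 83.3 and 73.5 against 31.4, 20.5 and 28.1). Of the 48 lower genes 15 lay below the 6 (0.919% of all genes) and 5 below all 12 (0.425%), namely *YRO2*, *WSC4*, *ACO1*, *YLR042C* and *INH1*. *INH1*, the inhibitor of the mitochondrial ATP synthase, had 44.5, 26.1 and 36.3 RPKM against 72.1, 67.5 and 74.1, and against 174, 146 and 74.6 in control T60. The calls of *INH1* and *OTU1* were lost without the block (adjusted p = 0.0847 and 0.0999) and without replicate 3, that of *INH1* also without replicate 2 and after rescaling, and that of *YGL039W* without replicate 3. That of *YLR042C* was lost without the block, without replicate 2 and without replicate 3.

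Small RNA genes made up 24 of the 116 higher genes, 20 of them for tRNAs, and 5 of the 48 lower genes were for tRNAs. The other 4 higher ones were among 78 small nucleolar and nuclear RNA genes tested. Genes outside these classes were 5667 of the 5876 tested, with 92 higher and 43 lower. Of all genes 1.97% were higher and 0.817% lower, so that tRNA genes were called more often than genes at large. The calls of small RNA genes rest on very few reads in libraries made from poly(A) RNA. The tRNA gene tF[GAA]G had 3, 5 and 7 reads in laser T60 and 0, 0 and 2 in control T30, and IMT4 had 3, 1 and 1 against 0, 0 and 0. In the opposite direction tG[GCC]O1 had 0, 0 and 0 reads against 1, 2 and 1. At this depth 1 read of a gene of 73 bases is worth 2.54 to 3.69 RPKM. Of the 20 tRNA calls upward 2 were made without the block and none with all 24 libraries in 1 fit, and reads of near-identical tRNA genes cannot be placed with certainty.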

How the data were processed

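RNA of 3 cultures was sequenced at 4 times with and without irradiation (24 libraries). The authors made libraries with the TruSeq Stranded mRNA kit, used SeqMan NGen 14.1.0 for alignment to S288C and computed RPKM in ArrayStar 14.1.0, and the values used here are their deposited RPKM, 1 per gene and library. How strand entered the counting is not given in the sources used here. Columns with group means, fold changes and p-values of the authors' own comparisons were not used. RPKM times gene length summed to 998801 to 999486 in every library, so that values were joined across the T30 and T60 tables. Read depth followed from the spacing of low RPKM values, of which 93.2% to 95.6% per library compared lay within 0.08 of a whole read, and intervals cover counting error only. A gene without reads is listed at 0.021.

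Genes reaching 1 RPKM in 3 or more of the 6 libraries were tested by limma 3.58.1 (R 4.3.3) on log2(RPKM + 1), two-sided, with a variance trend and the replicate number as a block, and a call took a p below 0.05 after Benjamini-Hochberg adjustment together with a difference of 1 or more on the log2 scale. Fold changes are on that scale, which understates those of low genes, and ratios are of mean RPKM. The blocked fit left 2 residual degrees of freedom per gene, beside a prior of 98.3 from all genes (6.9 without the block). Standard errors and p-values of the blocked fit therefore rest mainly on variance shared among genes, not on the spread of each gene. The block rests on the methods, in which each culture was divided. The deviations of equally numbered libraries from their group means correlated by 0.22, −0.20 and 0.39. Laser replicate 1 correlated more with control T30 replicate 2 (0.33), and laser replicate 2 more with control T30 replicate 3 (0.25). The data therefore show the pairing in part at most, and unblocked values are given for many genes. The procedure was run on simulated data, in which paired libraries shared an effect and both groups had the spread of control T30. In the data laser T60 libraries lay further apart (mean distance 0.0868) than control T30 libraries (0.0507). The simulation therefore does not show how the block performs here. Alternatives were no block, a pseudocount of 0.1, other filters (none, or an RPKM of at least 5), median-ratio rescaling, all 24 libraries in 1 fit, no small RNA genes and each replicate left out.

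Names of 6190 genes were matched to R64, which gave positions and sequences. Genes named are the 15 higher and 15 lower with the largest change among calls without overlap, up to 4 calls per list with the smallest p, the top 4 of the DNA damage and iron lists, and strain markers. Others were added after their values were seen, among them *MAG1*, *RFA2*, *DDI1*, *ECO1*, *RNR1*, *TIS11*, *ENB1*, *YHB1*, *RGS2* and the genes outside all controls. The values of 1 gene are not reported here. The comparison and the lists were chosen with earlier results of these data known. Matplotlib 3.10.9 drew the plots, under Python 3.11.15 with pandas 2.3.3 and NumPy 2.4.6.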

Additional observations from a re-analysis of the deposited data

How the results depend on the processing

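With no replicate block 41 genes were higher and 17 lower against control T30, 11 and 3 against control T60, and 34 and 30 between the control times. Median-ratio rescaling gave 60 higher against control T30 and 68 against control T60, and rescaling together with no replicate block, chosen after seeing the data, gave 57, 28 higher and 18 lower against control T60, and 40 and 26 between the control times. Against control T60 27 genes were lower with all 24 libraries in 1 fit and 29 without small RNA genes. Leaving out each replicate gave 20 to 183 higher and 11 to 55 lower genes against control T30, 106 to 155 and 29 to 54 against control T60, and 67 to 72 and 41 to 73 between the control times. Against control T30 leaving out replicate 3 moved the counts further than dropping the block, since 20 of the 116 higher and 10 of the 48 lower calls were kept without it. Under every setting but the one added after seeing the data 14 higher and 8 lower calls were kept, and 35 and 14 under no block, rescaling and the 24-library fit together. On log2(RPKM + 1) the distances were 0.0790, 0.0538, 0.0473 and 0.0506 to control T0, T15, T30 and T60, in the same order. For the named genes no call changed sign against control T30, with 1100 values on the same side of the threshold, 214 no longer past it and 1 newly past it. Rescaling moved the share of higher calls between the control times from 54.3% (63 higher, 53 lower) to 65.4% (70 higher, 37 lower). The causes were not tested. Groups of 3 libraries limit what these data can show.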

Other observations

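A few genes of mitochondrial copper delivery and respiratory chain assembly were higher in laser T60 than in control T30, although the list of respiratory chain genes gave no call. *COX17*, a copper chaperone, had 119, 103 and 108 RPKM against 55.2, 60.9 and 41.7 (log2 1.07 ± 0.22), *COX23* had 25.2, 25.5 and 33.0 against 8.27, 11.8 and 12.8 (1.28 ± 0.27), and *PET117*, an assembly factor of cytochrome c oxidase, had 32.6, 25.8 and 24.9 against 9.15, 14.3 and 8.19 (1.34 ± 0.27). All 3 calls were lost without replicate 3, and that of *PET117* also without the block. Against control T60 the differences were 0.54, 0.83 and 0.87, under the fold asked for. Control T0 means of the 3 genes (292, 45.3 and 74.9 RPKM) were above those of laser T60 (110, 27.9 and 27.7). These genes were chosen after their values were seen.

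*BNA2*, which opens NAD synthesis from tryptophan, had 8.09, 12.1 and 13.0 RPKM against 1.58, 1.77 and 3.70 (1.88 ± 0.37). It overlaps the gene *YJR079W* on the same strand, so that some reads are uncertain. *BIO2*, the iron-sulfur enzyme biotin synthase, had 54.2, 72.6 and 65.9 against 25.6, 30.4 and 30.4 (1.13 ± 0.23), and *ACB1*, the acyl-CoA binding protein, had 1059, 1245 and 1347 against 507, 563 and 519 (1.19 ± 0.19). Control T0 means of *BNA2*, *BIO2* and *ACB1* were 13.3, 97.7 and 1119 RPKM, beside 11.1, 64.3 and 1217 in laser T60. Against control T60 *BNA2* was called (1.52), whereas *BIO2* (0.44) and *ACB1* (0.79) were not. The call of each against control T30 was lost without replicate 3 and made without the block. They too were chosen after their values were seen.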
